A study of Homo sapiens with 4 samples.

Results

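Hep3B and Huh7 are the unselected parent hepatoma lines of the study, and their miRNA profiles were set against each other here, with 1 small RNA library for each line and no replicates. Counts were listed for 1733 mature miRNA names in each library. The 476 names with 10 or more counts in at least 1 of the parent libraries were compared, 352 names had between 1 and 9 counts as their highest value, and 905 had none in either line. The minimum admitted 9 names whose higher count was exactly 10 and left out 15 whose higher count was 9. Of the miRNAs compared, 293 reached the minimum in both lines, 119 in Huh7 alone and 64 in Hep3B alone. Both lines are established, untreated human liver cancer lines, Hep3B lacking p53 and carrying integrated hepatitis B virus DNA and Huh7 carrying mutated p53. The 2 further libraries of the series came from stem-like cells cultured out of each line, Hep3B-C from Hep3B and Huh7-C from Huh7. Because they are other cell states of the same lines, they served here as a second look at each line and not as replicates of it.

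A miRNA is cut from a hairpin precursor by Drosha and Dicer, and usually a dominant arm is loaded into Argonaute while the other arm, written with a star in the older names used here, is mostly degraded. Bases 2 to 8 of the mature miRNA, the seed, pair with target mRNAs, so miRNAs of a shared seed form a family. Neighbouring hairpins are often transcribed together as a cluster. In hepatocytes miR-122 is the hallmark miRNA, and hepatoma lines are known to differ in how much of it they keep.

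Counts summed to 1739278 in Hep3B and 5741567 in Huh7, and to 5430195 in Hep3B-C and 4045199 in Huh7-C. In the same order, these were 10.36%, 54.05%, 35.17% and 37.75% of the total reads, so the miRNA share was lowest in Hep3B. Levels are given as counts per 1000000 miRNA counts (CPM), so that 1 count was worth 0.575 CPM in Hep3B and 0.174 CPM in Huh7. Ratios are Huh7 over Hep3B on the log2 scale, with a 95% exact (Clopper-Pearson) interval that covers counting error only and not variation between cultures. A library at 0 was taken at a floor of 3 counts (1.72 CPM in Hep3B, 0.522 CPM in Huh7), which makes the ratio a bound. A difference of 2-fold or more was called. No statistical test was made, since 1 library a side gives no measure of the spread.

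The mature sequences of the miRNAs on which the comparison turns are given with the seed in capitals, 5′ to 3′. They were taken from RefSeq (GRCh38.p14), which matched 399 of the 476 names. The first group holds miRNAs that were far higher in Huh7 or that dominated its library.
miR-21: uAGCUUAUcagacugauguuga
miR-122: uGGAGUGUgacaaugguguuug
miR-30e: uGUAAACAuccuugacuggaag
miR-374a*: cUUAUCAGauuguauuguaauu
miR-196a: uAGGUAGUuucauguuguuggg
miR-10a: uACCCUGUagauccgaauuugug
miR-452: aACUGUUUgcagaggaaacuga
miR-224: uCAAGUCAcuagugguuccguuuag
miR-629: uGGGUUUAcguugggagaacu
miR-1299: uUCUGGAAuucugugugaggga
miR-9: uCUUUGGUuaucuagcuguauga

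The second group holds miRNAs that were far higher in Hep3B. The miR-200 family shares AAUACUG or AACACUG as its seed, and let-7c shares GAGGUAG with the rest of its family.
miR-200b: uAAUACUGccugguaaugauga
miR-429: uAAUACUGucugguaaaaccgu
miR-200a: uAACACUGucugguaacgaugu
let-7c: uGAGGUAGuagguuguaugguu
miR-146a: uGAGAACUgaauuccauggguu
miR-99a: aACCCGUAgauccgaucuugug
miR-217: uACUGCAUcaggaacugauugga
miR-1269: cUGGACUGagccgugcuacugg
miR-885-5p: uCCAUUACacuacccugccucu

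The third group holds the near-identical relatives of some of these, which differ by few bases outside the seed and which moved differently between the lines.
miR-196b: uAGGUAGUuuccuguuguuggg
let-7a: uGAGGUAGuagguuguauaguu
miR-146b-5p: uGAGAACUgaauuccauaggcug
miR-100: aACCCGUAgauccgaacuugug
miR-30a: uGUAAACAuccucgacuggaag
miR-200c: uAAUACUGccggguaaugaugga
Counted from base 1 at the 5′ end, miR-196a and miR-196b differ at A12C, let-7a and let-7c at A19G, miR-99a and miR-100 at U16A, and miR-30e and miR-30a at U13C. MiR-146a and miR-146b-5p differ at G18A and U21C, and miR-146b-5p is longer. How reads that could have come from either member of such a pair were assigned is not given in the sources used here, so a low count beside an abundant relative is uncertain.

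The Huh7 library was concentrated in few miRNAs. MiR-21, an abundant miRNA in most tumours, held 44.7% of the miRNA counts of Huh7 and 18.96% of those of Hep3B. Together with miR-192 and miR-122, it made up 65.5% of the counts in Huh7 and 29.3% in Hep3B. The counts were spread so that 2 miRNAs in Huh7 and 6 in Hep3B made up 50% of them, and 16 and 29 made up 90%. Among the 8 most abundant miRNAs of each line, 5 were shared.

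On this scale, 108 of the 476 miRNAs compared (22.7%) were 2-fold or more higher in Huh7 and 226 (47.5%) were 2-fold or more higher in Hep3B, while 142 lay within 2-fold. The 64 miRNAs that reached 10 counts in Hep3B alone were bound to be called higher there, because the Huh7 total was larger. The median log2 ratio was -0.79. Relative to this median, each log2 ratio given here is higher by 0.79. The balance depended on the scaling, since a CPM is a share of its own library. With TMM library sizes, which centre on the bulk of miRNAs, every log2 ratio shifted by 1.14, and 189 miRNAs were called higher in Huh7 against 152 in Hep3B. With the total reads of each library as its size the shift was 2.38, with 276 against 87 calls and a median of 1.59. The share of calls that were higher in Huh7 was thus 32.3%, 55.4% and 76.0% under these scalings. Since each alternative adds a positive constant to all log2 ratios, only ratios in favour of Hep3B could change sign. Of the 226 miRNAs called higher in Hep3B, 139 (61.5%) kept their sign under all 5 scalings. Differences larger than the range of these shifts were common. At least 8-fold differences were found for 26 miRNAs on the Huh7 side and 99 on the Hep3B side.

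**Figure D1:**
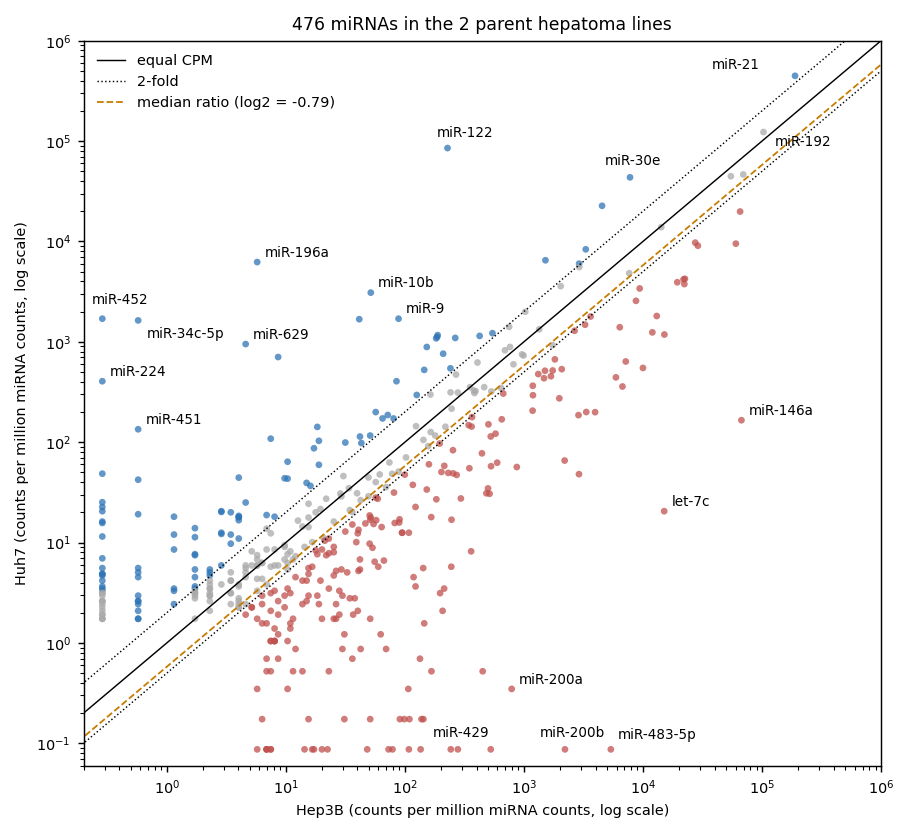
CPM of the 476 miRNAs compared in Hep3B (x axis) and Huh7 (y axis), both on log scales, with 0 drawn at 0.5 counts. Blue points are 2-fold or more higher in Huh7 (108), red points 2-fold or more higher in Hep3B (226) and grey points lie between; the dashed line marks the median log2 ratio of -0.79, and the blue and red totals change with the scaling (189 and 152 with TMM library sizes).

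Most differences between the parents were also seen between their derived cells. Both Huh7-line libraries lay above both Hep3B-line libraries in CPM for 114 of the 476 miRNAs (23.9%), and both Hep3B-line libraries lay above both Huh7-line libraries for 213 (44.7%). Of the 99 miRNAs at least 8-fold higher in Hep3B, 95 did not overlap between the lines over the 4 libraries. Of the 26 at least 8-fold higher in Huh7, 21 did not. The choice by parent ratio had already set the order of the parent libraries in both sets. Between the derived cells alone, 95 of the 99 and 20 of the 26 (76.9%) were on the same side, against 79.0% of all miRNAs compared. Derived ratios left without a size by the 3-count floor were not counted as on the same side. The no-overlap total was 327 on the CPM scale (68.7%) and between 304 and 339 under the other scalings, but its direction turned with the scaling. Huh7-line libraries were the higher ones for 170 miRNAs and Hep3B-line libraries for 168 with TMM, and for 190 and 114 with total reads.

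The liver miRNAs did not follow a common direction. MiR-122, which represses genes of cholesterol metabolism and is a host factor of hepatitis C virus, had 397 counts in Hep3B and 489443 in Huh7. This was 228 CPM against 85250 CPM, a log2 ratio of 8.54 (interval 8.40 to 8.69), and placed miR-122 at rank 109 in Hep3B and rank 3 in Huh7. It lies at chr18:58451074-58451158 (GRCh38, + strand) in an exon of the non-coding gene MIR122HG (GENCODE 29). Its other arm, miR-122*, had 0 counts in Hep3B and 279 in Huh7, at least 28.2-fold higher in Huh7. In the derived cells the gap was nearly absent, with 27600 CPM in Hep3B-C and 35800 CPM in Huh7-C, so that Hep3B stood alone as the low library among 4. A ratio to another liver miRNA within each library needs no scaling, and miR-122 was 0.222% of miR-192 in Hep3B, 69.2% in Huh7, 38.8% in Hep3B-C and 30.8% in Huh7-C.

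MiR-192, which is shared by liver, gut and kidney, was at 103000 CPM in Hep3B and 123100 CPM in Huh7 (log2 ratio 0.26), and was the second most abundant miRNA of both. Its cluster partner miR-194 was at 2917 and 5565 CPM (log2 ratio 0.93). MiR-148a was at 54790 and 44670 CPM, a log2 ratio of -0.29 that becomes positive under every other scaling tried. In the opposite direction, miR-885-5p had 186 counts in Hep3B and 2 in Huh7, and miR-885-3p from the other arm had 291 and 3. Their log2 ratios were -8.26 (interval -11.32 to -6.39) and -8.32 (interval -10.61 to -6.76). This hairpin lies at chr3:10394489-10394562 (GRCh38, - strand) in an intron of ATP2B2. Neither arm had a count in Huh7-C, while Hep3B-C held 159 and 1181. Of the 10 liver-enriched miRNAs compared, 5 were 2-fold or more higher in Huh7 and 2 in Hep3B, against 22.7% and 47.5% of all miRNAs, and their summed level was 162000 CPM in Hep3B and 261000 CPM in Huh7. The 5 were miR-122 and the star arms miR-122*, miR-148a*, miR-192* and miR-194*. Of these, miR-122* (0 and 279 counts in Hep3B and Huh7) and miR-192* (5 and 116) entered only through Huh7, and both miR-885 arms only through Hep3B. Such members could hardly have been called the other way.

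Markers of other cell types were found at varied levels. The largest sums were those of the pancreatic and endocrine list (2157 CPM in Hep3B, 274 CPM in Huh7) and of the neural list (108 and 1735 CPM), followed by the endothelial miR-126 arms (503.7 and 384.7 CPM) and the mesenchymal list (443 and 34.7 CPM). The other lists were scarce. None of the miR-302 and miR-371 to miR-373 group of pluripotent cells, and none of the placental cluster on chromosome 19, reached the minimum, with 0 and 3 summed counts for the former in Hep3B and Huh7 and 2 and 0 for the latter. Among 11 blood miRNAs, 3 were compared and the summed level was 6.90 CPM in Hep3B and 142 CPM in Huh7. Nearly all of this was miR-451, the red cell miRNA, with 1 count in Hep3B, 773 in Huh7, 1 in Hep3B-C and 2 in Huh7-C. It was therefore high in 1 library of 4, and the part of blood cells in this value was not tested. The muscle list had 2 members compared, at 9.20 and 11.3 CPM in all, and the squamous epithelium list 1, at 2.30 and 4.70 CPM.

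**Figure D2:**
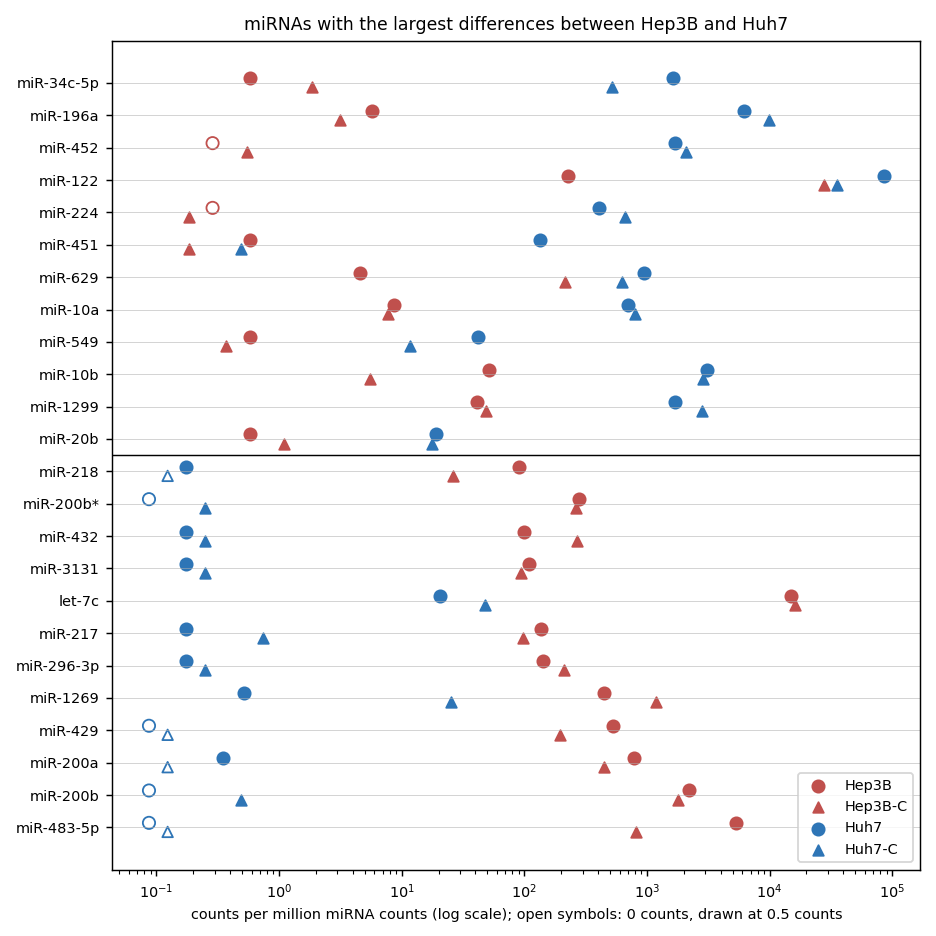
CPM (log scale) of the 12 miRNAs with the largest ratio in each direction, among those with 100 or more counts in a parent library, in Hep3B and Huh7 (circles) and in Hep3B-C and Huh7-C (triangles); open symbols mark 0 counts, drawn at 0.5 counts. In 23 of the 24 the red Hep3B-line symbols and the blue Huh7-line symbols do not overlap, against 68.7% of all miRNAs compared. The choice by parent ratio had already set the order of the circles. The exception was miR-451, which was high in Huh7 only, while miR-122 and miR-629 lay closer together in the derived cells than in the parents.

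MiRNAs encoded within the HOX gene clusters, which pattern the body axis, were mostly higher in Huh7. Of the 8 compared, 6 were 2-fold or more higher in Huh7 and 1 in Hep3B, against 22.7% and 47.5% of all miRNAs. Of the 6, miR-196a* (0 and 90 counts in Hep3B and Huh7), miR-615-3p (0 and 24) and miR-615-5p (1 and 15) entered the comparison only through Huh7, where they were high, and could hardly have been called the other way. MiR-196a had 10 counts in Hep3B, 35807 in Huh7, 17 in Hep3B-C and 39922 in Huh7-C. This was 5.75 against 6236 CPM in the parents, a log2 ratio of 10.08 (interval 9.20 to 11.14). It has 2 gene copies, at chr17:48632490-48632559 (- strand, intron of HOXB7) and chr12:53991738-53991847 (+ strand, intron of HOXC6), and reads cannot tell them apart.

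MiR-10a, from a hairpin at chr17:48579838-48579947 (- strand) between the HOXB genes and annotated in HOXB4 and HOXB3 transcripts, had 15 counts in Hep3B and 4053 in Huh7 (log2 ratio 6.35, interval 5.63 to 7.19). MiR-10b, from chr2:176150303-176150412 (+ strand, intron of HOXD3), had 90 and 17763 counts (log2 ratio 5.90). In the derived cells miR-10b was at 5.53 CPM in Hep3B-C and 2894 CPM in Huh7-C, so the groups stayed far apart. MiR-196b, from the HOXA cluster, was the member that went the other way, at 1822 CPM in Hep3B and 669 CPM in Huh7. Its log2 ratio of -1.45 turns positive when total reads set the library sizes, and it was nearly level at 1573 and 1560 CPM in the derived cells. Within a library miR-196b was 317 times as abundant as miR-196a in Hep3B, whereas miR-196a was 9.32 times as abundant as miR-196b in Huh7. The pair share a seed, which held 0.183% of counts in Hep3B and 0.691% in Huh7.

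The hairpins of miR-224 and miR-452 lie side by side within GABRE, a GABA receptor subunit gene, at chrX:151958578-151959712 (GRCh38, - strand). MiR-452 had 0 counts in Hep3B, 9769 in Huh7, 3 in Hep3B-C and 8478 in Huh7-C. MiR-224, often raised in liver tumours, had 0, 2326, 1 and 2662 counts in the same order. Both were thus at or near the floor in Hep3B cells and abundant in Huh7 cells, at least 986-fold and at least 235-fold higher in the parent comparison. The star arm miR-452* had 93 counts in Huh7 and 0 in Hep3B, at least 9.39-fold higher.

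A further X-linked pair, miR-105 and miR-767, which are known from testis and from tumours with loss of DNA methylation, was also 2-fold or more higher in Huh7 in all 4 arms compared (22.7% of all miRNAs were). Of these, miR-767-3p (0 and 130 counts in Hep3B and Huh7) and miR-105* (0 and 32) entered only through Huh7 and could not have been called the other way. MiR-105 was at 18.97 CPM in Hep3B and 103 CPM in Huh7 (log2 ratio 2.44), and miR-767-5p at 18.4 and 142 CPM (2.95). On chromosome X as a whole, 19 of 48 miRNAs were 2-fold or more higher in Huh7 and 11 in Hep3B, against 22.7% and 47.5% of all miRNAs, with a median log2 ratio of 0.28 against -0.79 over all miRNAs. Clustered miRNAs are not independent, and 7 of the 34 miRNA gene clusters lie on this chromosome.

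MiR-34c-5p, a miRNA of the p53 network that is also prominent in ciliated and germ cells, had 1 count in Hep3B, 9388 in Huh7, 10 in Hep3B-C and 2086 in Huh7-C. With a count of 1 in Hep3B its ratio was poorly bounded, at 11.47 on the log2 scale with an interval from 8.995 to 16.78. Its relative miR-34a, the member most directly induced by p53, had 154 counts in Hep3B and 292 in Huh7. MiR-34a was thus 88.5 CPM against 50.9 CPM, a log2 ratio of -0.80 that becomes positive under every other scaling tried. MiR-34c-5p was 0.649% of miR-34a in Hep3B and 32.1 times miR-34a in Huh7. The other hairpin of the locus gave few reads, with 12 counts of miR-34b* in Huh7 and 0 in Hep3B.

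Other miRNAs were high in Huh7 alone or in the Huh7 line. MiR-9, a neural miRNA with 3 gene copies, was at 88.5 CPM in Hep3B and 1701 CPM in Huh7 (log2 ratio 4.26, interval 4.03 to 4.50), and at 155 and 2806 CPM in the derived cells. MiR-124, the other main neural miRNA, was below the minimum in both lines. MiR-1299 was at 41.4 and 1681 CPM (log2 ratio 5.34), and miR-549 had 1 and 243 counts (log2 ratio 6.20, interval 3.71 to 11.51). MiR-629, from an intron of TLE3 at chr15:70079372-70079468 (- strand), had 8 counts in Hep3B and 5455 in Huh7 but 1173 in Hep3B-C, so that here too Hep3B was the low library.

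Among the 8 most abundant miRNAs of each line, miR-30e and miR-374a* had the largest ratios in favour of Huh7 after miR-122. MiR-30e is encoded in an intron of NFYC at chr1:40754355-40754446 (+ strand) and was at 7793 CPM in Hep3B and 43560 CPM in Huh7, a log2 ratio of 2.48 (interval 2.46 to 2.51). Over the 4 libraries it did not overlap between the lines. MiR-30d of the same family was at 28940 and 9075 CPM, a log2 ratio of -1.67 that reverses to 0.71 with total reads as library sizes. MiR-30e was 26.9% of miR-30d in Hep3B and 4.80 times miR-30d in Huh7, a change within the family that no scaling alters. MiR-374a*, from an intron of the non-coding gene FTX at chrX:74287286-74287357 (- strand), was at 4538 and 22670 CPM (log2 ratio 2.32).

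On the Hep3B side, the largest ratio belonged to miR-483-5p, encoded in an intron of the fetal growth factor gene IGF2. It had 9350 counts in Hep3B, 0 in Huh7, 4393 in Hep3B-C and 0 in Huh7-C. At the floor it was at least 10290-fold higher in Hep3B. MiR-483-3p, from the other arm, had 236 counts in Hep3B and 0 in Huh7. The neighbouring imprinted RNA H19 carries miR-675, whose arms gave 233 counts of miR-675* and 27 of miR-675 in Hep3B against 4 and 1 in Huh7. All 4 arms of this imprinted region were higher in both Hep3B-line libraries than in both Huh7-line libraries, as were 44.7% of all miRNAs. The 4 arms entered the comparison only through Hep3B, and they come in pairs from the hairpins of miR-483 and miR-675.

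The miR-200 family, known to hold epithelial identity by repressing ZEB1 and ZEB2, was 2-fold or more higher in Hep3B in all 7 arms compared (47.5% of all miRNAs were), of which 6 kept that direction under the 5 scalings and miR-141 did not. MiR-200b had 3850 counts in Hep3B, 0 in Huh7, 9812 in Hep3B-C and 2 in Huh7-C. MiR-200a had 1373, 2, 2434 and 0, and miR-429 had 916, 0, 1053 and 0. These 3 share 1 cluster at chr1:1167104-1169087 (GRCh38, + strand), and all 5 arms compared from it were near absent in the Huh7 line. The 5 arms reached the minimum in Hep3B alone, which fixed the direction of their call. MiR-200b and miR-429 were at least 4236-fold and at least 1008-fold higher in Hep3B, while the log2 ratio of miR-200a was -11.15 (interval -14.19 to -9.29).

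The other miR-200 cluster, within the non-coding gene MIR200CHG at chr12:6963699-6964191 (+ strand), kept reads in both lines. MiR-200c had 606 counts in Hep3B and 316 in Huh7, a log2 ratio of -2.66 (interval -2.86 to -2.46). MiR-141 had 27 and 32 counts, and its log2 ratio of -1.48 turns positive with total reads as library sizes. Within Hep3B miR-200b was 6.35 times as abundant as miR-200c, and in Huh7 it had no count beside the 316 of miR-200c.

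Let-7, a family that opposes growth genes such as HMGA2 and the MYC and RAS genes, was 2-fold or more higher in Hep3B in all 10 arms compared (47.5% of all miRNAs were), and only the star arm let-7a* (-1.09) changed sign under any of the 5 scalings. The pooled family held 10.4% of counts in Hep3B and 1.16% in Huh7, a log2 ratio of -3.16. Let-7a, the most abundant member, was at 60330 CPM in Hep3B, 9512 CPM in Huh7, 50880 CPM in Hep3B-C and 16090 CPM in Huh7-C. Let-7c differed far more, with 26250 counts in Hep3B, 118 in Huh7, 87854 in Hep3B-C and 194 in Huh7-C, a parent log2 ratio of -9.52 (interval -9.79 to -9.26). Let-7c was 25.02% of let-7a in Hep3B and 0.216% in Huh7. At that level the 118 reads of Huh7 are uncertain, since the names differ by 1 base.

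Let-7c and miR-99a lie in an intron of the non-coding gene MIR99AHG at chr21:16539089-16539911 (+ strand). MiR-99a had 361 counts in Hep3B and 12 in Huh7, a log2 ratio of -6.63 (interval -7.60 to -5.81). Its near-identical relative miR-100, from chromosome 11, was at 752 CPM in Hep3B and 1410 CPM in Huh7 (log2 ratio 0.91). MiR-99a was therefore 27.6% of miR-100 in Hep3B and 0.148% in Huh7. In the derived cells miR-99a was 3.15 times miR-100 in Hep3B-C and 0.387% of it in Huh7-C.

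MiR-146a, induced by NF-kappaB and a brake on inflammatory signalling, was the most abundant miRNA of Hep3B among those far lower in Huh7, at 406-fold less. It had 116938 counts in Hep3B, 951 in Huh7, 185624 in Hep3B-C and 673 in Huh7-C. This was rank 4 in Hep3B and rank 100 in Huh7, with 67230 against 166 CPM and a log2 ratio of -8.67 (interval -8.76 to -8.57). Its gene lies at chr5:160485352-160485450 (+ strand) in an exon of MIR3142HG. MiR-146b-5p, which shares its seed, was at 2040 CPM in Hep3B and 3590 CPM in Huh7 (log2 ratio 0.82), and at 16460 and 5137 CPM in the derived cells. MiR-146a was 33.0 times miR-146b-5p in Hep3B and 4.61% of it in Huh7. The shared seed held 6.93% of the miRNA counts in Hep3B and 0.376% in Huh7. MiR-155, also tied to inflammatory signalling, was below the minimum in both.

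The miR-17-92 cluster, a MYC target that promotes proliferation, was 2-fold or more higher in Hep3B for 10 of the 11 arms compared (47.5% of all miRNAs were). The direction held under all 5 scalings in 6 of the 10, close to the 61.5% over all miRNAs called higher in Hep3B. MiR-17 was at 10010 CPM in Hep3B and 549 CPM in Huh7 (log2 ratio -4.19), miR-20a at 13070 and 1809 CPM (-2.85) and miR-92a at 12000 and 1243 CPM (-3.27). The pooled log2 ratio was -3.13 in the parents and -3.19 in the derived cells. The paralogue on chromosome X also encodes miR-92a and miR-19b, and reads cannot tell these copies apart. Of the 9 single-copy arms of miR-17-92, 8 were 2-fold or more higher in Hep3B. The other members of the paralogue were mixed in direction. MiR-106a had 97 counts in Hep3B and 37 in Huh7 (log2 ratio -3.11), whereas miR-20b had 1 and 110 counts and miR-363 had 5 and 118. MiR-106a differs from miR-17 by A1C alone and amounted to 0.557% of it in Hep3B and 1.17% in Huh7, so its reads are uncertain.

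The DLK1-MEG3 region of chromosome 14, an imprinted locus with a large miRNA array, had 19 arms compared, of which 18 were 2-fold or more higher in Hep3B (47.5% of all miRNAs were), with the direction kept under all 5 scalings in 16 of them. Many of the 18 reached the minimum in Hep3B alone, such as miR-432 (172 and 1 counts in Hep3B and Huh7), miR-410 (12 and 0) and miR-369-3p (11 and 9). Their call was fixed by the filter and the larger Huh7 total, so the count of 18 says little by itself. The most abundant member of the array, miR-379, had 1037 counts in Hep3B, 359 in Huh7, 10485 in Hep3B-C and 12 in Huh7-C. MiR-134 had 842, 178, 4840 and 5, and miR-127-3p had 344, 18, 2729 and 0. The array was thus low in Huh7 and lower still in Huh7-C, with pooled log2 ratios of -3.73 between the parents and -9.84 between the derived cells. The exception was miR-376c, with 4 counts in Hep3B and 15 in Huh7.

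Other families higher in Hep3B included miR-181, with all 7 arms compared past 2-fold (47.5% of all miRNAs were) and a pooled log2 ratio of -3.87. The direction held under all 5 scalings in 5 of the 7, against 61.5% over all miRNAs called higher in Hep3B. MiR-181a, active in lymphocyte development, was at 5932 CPM in Hep3B and 443 CPM in Huh7. MiR-130b was at 3343 and 200 CPM (log2 ratio -4.06), and miR-301a of the same seed family had 248 and 32 counts. MiR-130a, by contrast, had 2 counts in Hep3B and 49 in Huh7, but 3 and 2 in the derived cells.

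MiR-375, an islet and neuroendocrine miRNA, was at 1985 CPM in Hep3B and 274 CPM in Huh7 (log2 ratio -2.86). MiR-217 and miR-216a, known from the exocrine pancreas, share a cluster in MIR217HG on chromosome 2 and had 240 and 35 counts in Hep3B against 1 and 0 in Huh7. Both were also near absent from Huh7-C, with 3 and 0 counts. MiR-1269, whose gene lies at chr4:66276824-66276928 (+ strand), had 784 counts in Hep3B, 3 in Huh7, 6426 in Hep3B-C and 103 in Huh7-C. MiR-432, miR-296-3p, miR-3131 and miR-218 each had between 158 and 249 counts in Hep3B and 1 in Huh7, and no more than 1 in Huh7-C. Of the mesenchymal markers, 5 of 10 were compared, of which 4 were 2-fold or more higher in Hep3B (47.5% of all miRNAs were) and 1 in Huh7 (22.7%). Over the 4 libraries, 3 of the 5 were without overlap between the lines, against 68.7% of all miRNAs. The 1 higher in Huh7 was miR-199a-5p, with 1 count in Hep3B and 17 in Huh7. MiR-143, known from smooth muscle and fibroblasts, made up most of the sum in Hep3B, with 427 and 33 counts, and miR-145 of the same locus was below the minimum. Reads of miR-199a-3p and miR-199b-3p, 165 and 72 in Hep3B and Huh7, were listed alike under both names and enter this sum under each.

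**Figure D3:**
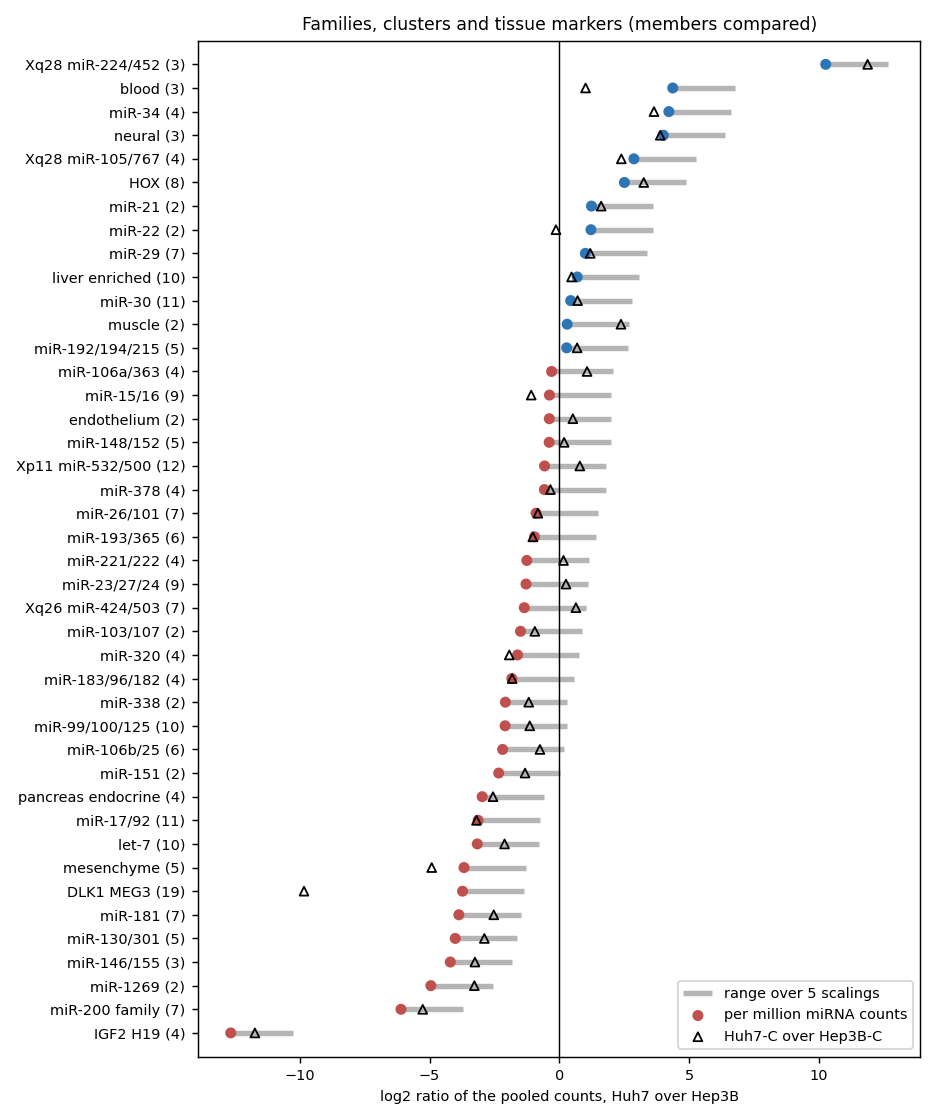
Log2 ratio of the pooled counts, Huh7 over Hep3B, for families, clusters and tissue marker lists with 2 or more members compared (number in brackets). Filled circles are on the CPM scale, grey bars span the 5 scalings and open triangles give Huh7-C over Hep3B-C; the miR-200 family (-6.11), let-7 (-3.16) and the DLK1-MEG3 array (-3.73) stay below 0 under all 5 scalings, the HOX miRNAs (2.51) lie above it on the CPM scale, which gives the lowest ratios, and lists whose bar crosses 0, such as miR-23, miR-27 and miR-24 (-1.28), have no direction that holds under all of them.

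Log2 ratios varied less within clusters of neighbouring hairpins than over all miRNAs. Hairpins within 10 kb on a strand formed 34 clusters that held 134 of the miRNAs compared. Of the 33 clusters with a member past 2-fold, 30 had such members in 1 direction only and 3 were mixed. A cluster with only 1 such member, as from MIR34B to MIR34C, could not be mixed. The DLK1-MEG3 array was split over several clusters, and both arms of a hairpin counted as members. The count of 30 therefore does not measure how often neighbours share a direction. The median SD of log2 ratios within a cluster was 1.09, against 3.17 over all miRNAs compared. Many clusters held few miRNAs, often arms of the same hairpin, and MIR3689A to MIR3689E held 3 names of identical counts. This SD is therefore not that of separate hairpins. In Huh7 the 4 arms of MIR425 and MIR191, in an intron of DALRD3 on chromosome 3, were all 2-fold or more higher, with log2 ratios between 1.04 and 2.16. In Hep3B the 4 arms of MIR193B and MIR365A on chromosome 16 were all higher, between -2.64 and -1.83, and ratios in this range that lie above -2.38 turn positive with total reads as library sizes. Because members of a cluster share a transcript, they are not separate observations of a difference between the lines.

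**Figure D4:**
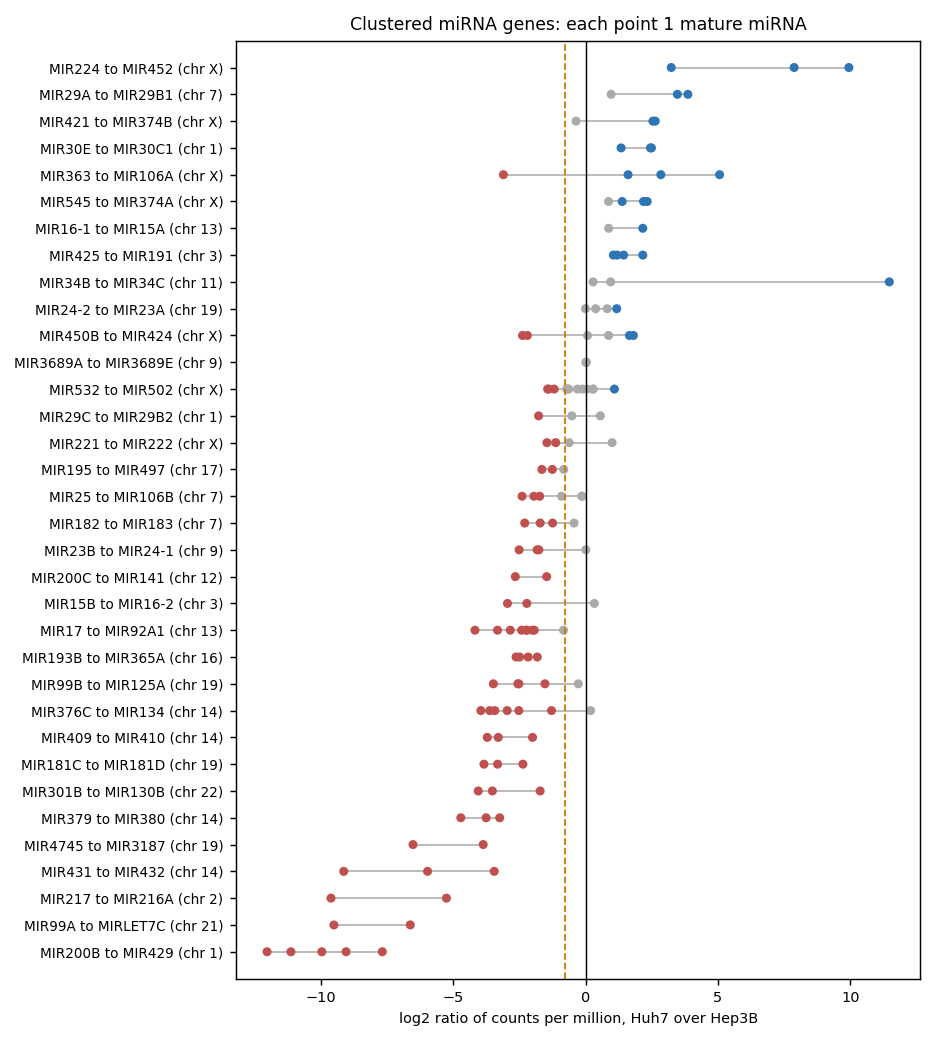
Log2 ratio of CPM, Huh7 over Hep3B, of each mature miRNA (point) in the 34 clusters of miRNA genes, named by their outer hairpins and ordered by median; grey lines span the members and the dashed line is the median over all miRNAs compared (-0.79). Members past 2-fold lie in 1 direction only in 30 clusters, some of which have a single such member. Those of MIR200B to MIR429 all lie below -7 and the cluster of MIR363 to MIR106A spans both sides.

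The arms of a hairpin are counted from separate reads of 1 precursor. Both arms were compared for 105 hairpins, and in 91 (86.7%) they differed between the lines in the same direction. Where all 4 counts were 10 or more, 47 of 52 (90.4%) did. The log2 ratio of the more abundant arm to the other changed by a median of 0.80 in size between the lines, and by more than 1 in 20 of these 52 hairpins. In 6 of them the more abundant arm was not the same in both lines. Some of these were near ties at low counts. MiR-330-3p and miR-330-5p had 26 and 21 counts in Hep3B, and 24 and 26 in Huh7. For miR-574, miR-574-3p led in Hep3B with 429 counts against 203 of miR-574-5p, and miR-574-5p led in Huh7 with 216 against 97. For miR-423, miR-423-5p led in Hep3B with 3036 counts against 1729 and miR-423-3p led in Huh7 with 4194 against 2975. Such ratios are free of scaling between libraries, but they have no replicate check.

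**Figure D5:**
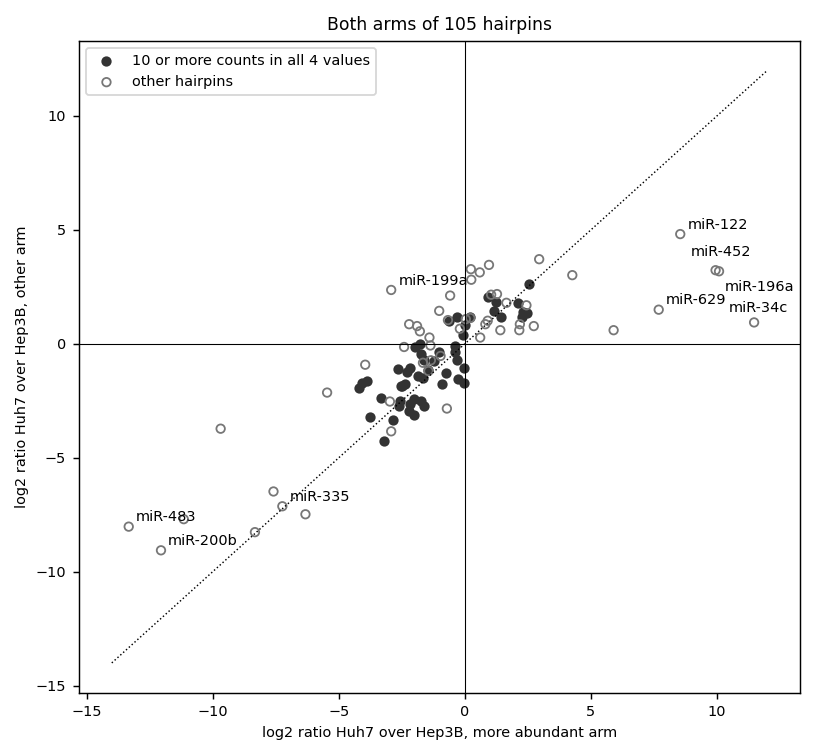
Log2 ratio Huh7 over Hep3B of the more abundant arm (x axis) and of the other arm (y axis) of 105 hairpins; filled points have 10 or more counts in all 4 values (52 hairpins), and the dotted line marks equal ratios. Both arms lie on the same side of 0 in 91 hairpins on the CPM scale, and low counts of the other arm pull the points of miR-34c, miR-452 and miR-196a towards 0 because they are bounds.

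Grouped by seed, the 399 miRNAs with a sequence held 330 seeds, of which 41 were shared by 2 or more of them. Shares of a seed leave out miRNAs without a sequence. In 8 of these, members were 2-fold or more higher in opposite lines. The seed GGAGUGU of miR-122 held 0.0228% of counts in Hep3B (95% Clopper-Pearson interval 0.0206% to 0.0252%) and 8.53% in Huh7 (8.50% to 8.55%). By contrast, AAAGUGC, shared by miR-17, miR-20a, miR-20b, miR-93, miR-106a and miR-106b, held 4.74% in Hep3B and 0.756% in Huh7. Across these 399 miRNAs, the log2 ratio had a Spearman rho of -0.11 with GC content and of 0.08 with length, given as descriptions of miRNAs that share libraries and clusters.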

How the data were processed

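Small RNA libraries had been sequenced on an Illumina Genome Analyzer II. The authors removed contaminating or redundant reads and those under 18 nt, aligned the rest to NCBI Build 36.1 with SOAP, set other small RNAs aside and matched what was left to miRBase release 17. They deposited raw read counts per mature miRNA, without normalization. Counts were scaled here to a total of 1000000 miRNA counts per library, and miRNAs with 10 or more counts in either parent library were compared. With 1 library per line, ratios carry exact intervals and no p-value. The script was checked on simulated data.

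The miRNAs and 49 lists were chosen with earlier results of these data known. Named are the 12 largest ratios in each direction among miRNAs with 100 or more counts in a parent library, the 8 most abundant per line, and up to 4 leading members of each list. Members that show how a family or arm pair differs were added after their values were seen. Names without an arm were taken as the guide arm of their hairpin. Positions and host genes come from RefSeq and GENCODE 29 (GRCh38), since the deposited files hold none. A hairpin was labelled exonic where it overlapped an exon of any annotated transcript of its host gene. Hairpins or arms missing from those tables were not placed. Names with identical counts in all libraries, such as miR-199a-3p and miR-199b-3p, were kept. Alternatives were total reads as library sizes, TMM (edgeR 4.0.16, R 4.3.3), median of ratios and totals without the 10 most abundant miRNAs of either line. Other count filters, a 4-fold limit, a call that also needs the 95% interval to lie on 1 side of 0, and 0.5 counts added were tried too. Python 3.11.15, numpy 2.4.6, pandas 2.3.3 and scipy 1.17.1 were used.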

Additional observations from a re-analysis of the deposited data

Results flagged for a closer look

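Among the miRNAs that the naming rule covers, past 2-fold between the parents and with counting intervals that exclude 0 in both comparisons, there were 7 for which the parents and the derived cells differed in opposite directions on the CPM scale, Hep3B being higher than Huh7 and Huh7-C higher than Hep3B-C. The reversal itself was not tested, since each library stands alone. With total reads as library sizes, the shift of 2.38 makes all 7 parent ratios positive. The log2 ratios, parents first and derived cells second, were -2.21 and 0.48 for miR-542-3p and -2.19 and 0.43 for miR-148b. MiR-148b*, from the other arm of that hairpin, was at -1.04 and 0.80. MiR-29c had ratios of -1.78 and 0.77, and miR-24 had -1.46 and 0.55. MiR-221 and its other arm miR-221*, whose hairpin targets cell cycle inhibitors, were at -1.14 and 0.18 and at -1.47 and 0.07. Over all miRNAs compared and without these limits, 376 of 476 were on the same side in the parents and the derived cells (79.0%).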

How the results depend on the processing

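No paired analysis was possible because the labels carry no replicate numbers and each line has 1 parent library, which also leaves no library to leave out. The 108 and 226 calls (higher in Huh7 and in Hep3B) and the median log2 ratio of -0.79 moved with the scaling. Total reads as library sizes gave 276, 87 and 1.59, TMM gave 189, 152 and 0.35, median of ratios gave 193, 151 and 0.35, and totals without the 10 most abundant miRNAs gave 196, 144 and 0.45. Requiring 10 counts in both libraries left 44 calls higher in Huh7 and a median of -1.14, and a 4-fold limit left 62 such calls. A CPM minimum shared by both libraries gave a median of -1.41. Without a filter the median was 0.00, which was not a measured ratio. Names with 3 or fewer counts in both libraries, or with a floor bound of no size, had their ratio set to 0. The 91 hairpins with arms of the same direction became 47 when all 4 counts had to reach 10, since fewer hairpins qualified.

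Among lists with members compared and pooled ratios past 2-fold on the CPM scale, total reads reversed several. These were the miR-106b and miR-25 cluster (0.19), the miR-99, miR-100 and miR-125 group (0.29), miR-221 with miR-222 (1.13), and miR-23, miR-27 and miR-24 (1.10). Also reversed were miR-320 (0.77), the miR-183 cluster (0.55), the miR-424 and miR-503 cluster (1.03), miR-103 with miR-107 (0.89), miR-151 (0.043) and miR-338 (0.30). Among the 8 most abundant miRNAs per line, the ratios of miR-182 (0.66) and miR-30d (0.71) reversed. Lists with a negative pooled ratio within 2-fold also turn positive, since the shift of 2.38 is larger. Examples are miR-378 (-0.58) and miR-26 with miR-101 (-0.90) on the CPM scale. Without the most abundant member, the pooled ratio of miR-34 became -0.65, that of miR-146 with miR-155 became 0.82 and that of the miR-424 and miR-503 cluster became 0.015. These lists therefore rest on that member or on the scaling. The other settings left the call counts within 1.5 times. The small miRNA total of Hep3B, 10.36% of its total reads against 54.05% in Huh7, limits its low side. There 10 counts are 5.75 CPM against 1.74 CPM in Huh7.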
